A study of Mus musculus with 6 samples.

Results

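Corticofugal neurons are the projection neurons of the deep cortical layers, whose axons leave the cortex for the thalamus, brainstem and spinal cord. The 10 genes described here mark the identity of these layer 5 and layer 6 neurons: Fezf2, Bcl11b, Tbr1, Sox5, Tle4, Zfpm2, Foxp2, Ldb2, Crym and Hs3st4. They were taken by symbol from a table of read counts for 24391 gene symbols, and all 10 were found and passed the low-count filter, which left 15925 genes to test. RNA had been measured in frozen hemibrains of mice on the day of birth, 3 labelled Celf2 -/- (null) and 3 labelled Celf2 +/- (heterozygous). The control pups lack 1 Celf2 allele, so every comparison below is null against heterozygous, and no wild-type pup was compared. Celf2 encodes an RNA-binding protein that acts on splicing, stability and translation of its target transcripts. A hemibrain holds cortex together with striatum, thalamus, midbrain and hindbrain, so fewer cells of a type and less RNA per cell cannot be told apart in these data. The labels name each pup by a number (2, 4 and 10 for null, 6, 7 and 11 for heterozygous) and give no litter, sex or batch, so the p-values measure the spread between these pups.

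The deep-layer programme is a network of factors that act partly against each other. Fezf2 specifies subcerebral layer 5 neurons and acts upstream of Bcl11b (CTIP2), which shapes their axons, while Tbr1 specifies layer 6 corticothalamic neurons and represses Fezf2 and Bcl11b there. Sox5 sets the order in which corticofugal subtypes arise, and Tle4 is a corepressor of layer 6 neurons. Several of these genes are not restricted to cortex: Bcl11b and Foxp2 are also known in striatal projection neurons, and Foxp2 in thalamus and cerebellum.

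CELF proteins bind GU-rich elements in transcripts, and these elements were unevenly spread over the 10 genes. Annotated 3′ UTRs of GENCODE M21 on GRCm38 (the longest per gene in its basic protein-coding set) were searched on the transcript strand for TGTTTGT and for TGTGTGT, overlapping matches counted separately. TGTTTGT was present in 6 of 10 members and in 29.0% of the 14416 tested genes with an annotated 3′ UTR, and TGTGTGT in 4 of 10 and in 33.0%. Longer 3′ UTRs have more places for a match, and the median length was 1555.5 bases in members and 1176 over all these genes. Per kilobase, TGTTTGT occurred 0.69 times in members and 0.32 times over all, and TGTGTGT 1.06 and 0.93 times. Of the 23 TGTGTGT matches in members, 14 were in Sox5, most of them overlapping within a single GU repeat, so the pooled rate rests largely on that gene. The 3′ UTRs of Fezf2 (402 bases), Tbr1 (1676 bases) and Zfpm2 (1016 bases) held neither element. Sox5 held 6 matches of TGTTTGT and 14 of TGTGTGT in 4839 bases, and Foxp2 held 4 and 0 in 3956 bases. The following stretches show the elements in the members that carry them, 5′ to 3′, with the element in capitals, and each lies in the 3′ UTR.
Sox5, GU repeat, chr6:143832206-143832228, minus strand: tgtgtgtgTGTGTGTgtgtgtgt
Sox5, chr6:143832910-143832932, minus strand: tttatggcTGTTTGTtctatatt
Bcl11b, chr12:107910627-107910649, minus strand: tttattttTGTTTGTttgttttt
Tle4, chr19:14448180-14448202, minus strand: tggtagatTGTTTGTgcattcag
Foxp2, chr6:15438226-15438248, plus strand: attttgttTGTTTGTttgtttga
Crym, chr7:120186491-120186513, minus strand: cctattcaTGTTTGTggttggat
Hs3st4, chr7:124398611-124398633, plus strand: atgtttttTGTTTGTcttgatgc
Ldb2, chr5:44472203-44472225, minus strand: agtggctcTGTGTGTcatcaagc
These letters describe the annotated sequence only, and binding of CELF2 was not measured in the files used here. The read table has no coordinates, and the build named for it (mm9) is not the build of this annotation.

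Library totals lay between 28831997 and 36531980 counts, and each member had between 814 (Crym, null pup 10) and 7127 counts (Bcl11b, heterozygous pup 11) in a library. Null pup 2 stood apart from the other libraries. The ribosomal RNA precursor Rn45s took 11.8% of its counts, against 0.194% to 1.27% elsewhere. The sum of its midbrain marker genes was low, although Otx2 and Sox14 lay within the range of the other libraries. Levels are given as CPM, counts divided by the TMM-scaled library total. Celf2 itself ranged from 362 to 459 CPM in heterozygous and from 331 to 448 CPM in null pups, and a count per gene cannot tell intact from disrupted transcripts. The labels are therefore not checked by this gene, and each direction below rests on them. The Y-linked gene Ddx3y was at 65.5 to 80.0 CPM in heterozygous pups 6 and 11 and null pup 2 and at 0 in the other 3, so 2 of 3 heterozygous and 1 of 3 null pups were male by this gene. With presence of Ddx3y as a covariate the log2 fold changes were 0.60 for Fezf2 (edgeR adjusted p = 0.118) and 0.64 for Tbr1 (edgeR adjusted p = 0.115), and 10 genes were called over all tested genes, none of them a member.

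By median level per length, the 10 genes lay between the percentiles 52.1 (Sox5) and 87.1 (Hs3st4) of all tested genes. In heterozygous hemibrains Hs3st4, a heparan sulfate sulfotransferase, had the highest level, 108 ± 3.69 TPM, the length-scaled share of a library (SD, n = 3), above Crym (78.8 ± 3.63 TPM), a thyroid-hormone-binding protein. Bcl11b followed at 70.3 ± 4.94 TPM, and its range overlapped that of Crym. Tbr1 (62.3 ± 1.46 TPM) and the LIM-domain-binding cofactor Ldb2 (59.4 ± 1.24 TPM) did not overlap, and the range of Tle4 (60.3 ± 5.63 TPM) took in both. Fezf2 (38.2 ± 2.84 TPM) and Foxp2 (37.2 ± 1.86 TPM) overlapped, as did Zfpm2 (23.7 ± 0.779 TPM) and Sox5 (21.5 ± 2.76 TPM) at the lower end. In null hemibrains Tbr1 was at 88.5 ± 10.9 TPM, second in mean after Hs3st4 (99.4 ± 14.2 TPM), although its range of 77.8 to 99.6 TPM overlapped that of Hs3st4, 83.1 to 109 TPM.

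**Figure D1:**
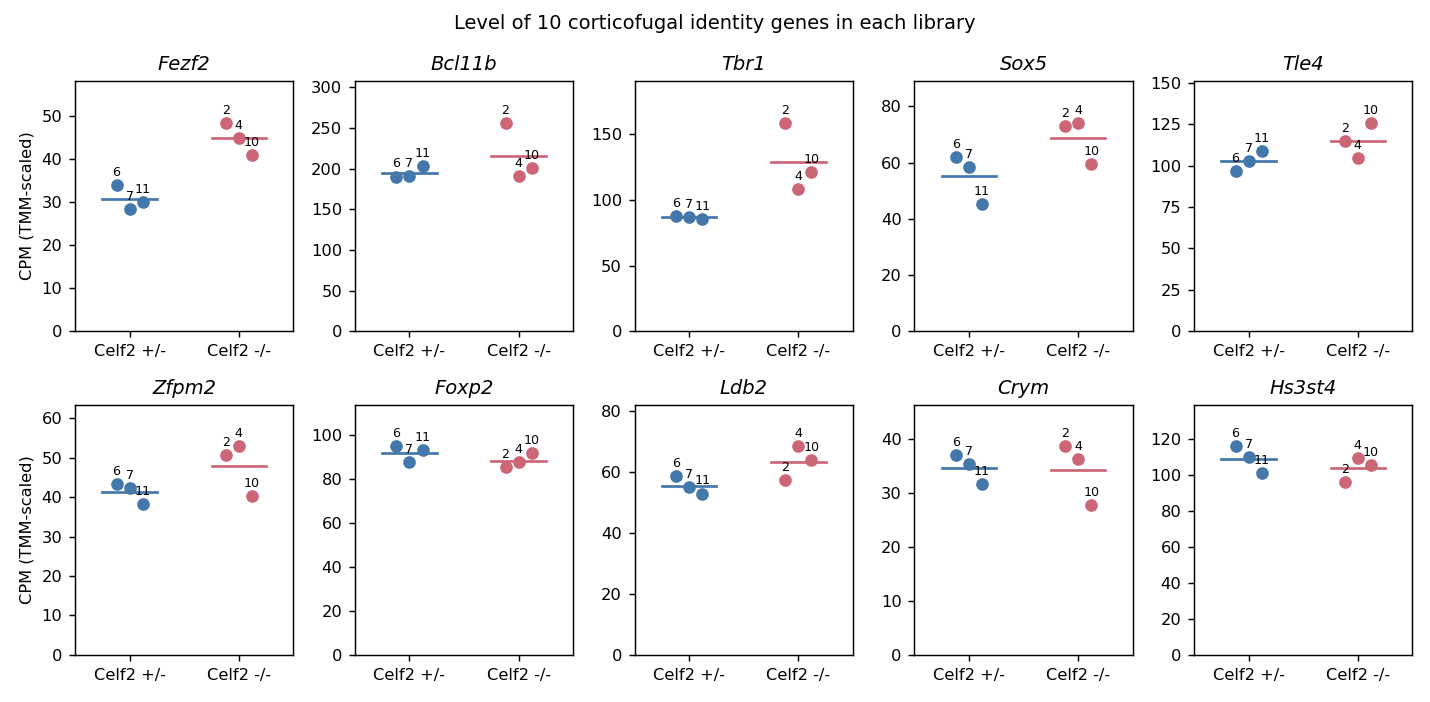
Level of each of the 10 genes in CPM with library sizes scaled by TMM (vertical axis, from 0) in 3 Celf2 +/- and 3 Celf2 -/- hemibrains; each point is a library with its pup number, and each line is the group mean. Fezf2 and Tbr1 are the genes whose groups do not overlap, with the null points above the heterozygous ones.

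The master regulators of the 2 deep layers, Fezf2 and Tbr1, had the highest fold changes among the 10 genes. Fezf2 was at 34.0, 28.4 and 29.9 CPM in heterozygous pups 6, 7 and 11 and at 48.5, 45.0 and 41.0 CPM in null pups 2, 4 and 10. All 3 null values lay above all 3 heterozygous ones. The fitted null level was 145% of the heterozygous level, with a confidence interval (95%) of 123% to 172% (log2 fold change 0.54, SE 0.11). Over all 15925 genes the edgeR adjusted p was 0.353, so Fezf2 did not pass the threshold of 0.05. DESeq2's Wald test gave an adjusted p of 0.00324 for the same counts, and limma-voom gave 0.423.

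Tbr1 was nearly constant among heterozygous pups, at 87.7, 86.7 and 85.8 CPM, and reached 159, 108 and 121 CPM in null pups 2, 4 and 10. The groups did not overlap, and the null group was the more spread of the 2, with pup 2 far above the others. The null level was 149% of the heterozygous level (95% interval 123% to 180%; log2 fold change 0.57, SE 0.12). The edgeR adjusted p was 0.368, against 0.0112 with DESeq2 and 0.479 with limma-voom. Without null pup 2 the log2 fold change was 0.40 for Tbr1 (edgeR adjusted p = 0.536) and 0.48 for Fezf2 (edgeR adjusted p = 0.656), so both stayed positive without the library of unusual RNA content. DESeq2 without that library, added after the data were seen, still called Tbr1 (0.40, adjusted p = 0.0264) but not Fezf2 (0.48, adjusted p = 0.0770).

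Bcl11b, the layer 5 factor downstream of Fezf2, differed little between the groups. It was at 190, 191 and 203 CPM in heterozygous pups 6, 7 and 11 and at 257, 191 and 201 CPM in null pups 2, 4 and 10. Null pup 2 alone lay above the heterozygous range. The null level was 111% of the heterozygous one (interval 94.9% to 130%; log2 fold change 0.15, edgeR adjusted p = 0.842), and that interval includes no difference. Its log2 fold change was 0.01 without null pup 2 and 0.23 without null pup 4.

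Sox5, the timing factor, had a fold change between those of Bcl11b and Fezf2. Its levels were 62.0, 58.5 and 45.4 CPM in heterozygous pups 6, 7 and 11 and 73.0, 74.2 and 59.5 CPM in null pups 2, 4 and 10. Null pups 2 and 4 lay above every heterozygous pup, and null pup 10 lay inside the heterozygous range. The null level was 125% of the heterozygous level (interval 102% to 152%; log2 fold change 0.32, SE 0.13, edgeR adjusted p = 0.656). Without heterozygous pup 11, the lowest library, the fold change was 0.19. Zfpm2 (FOG2), a cofactor of GATA factors found in corticothalamic neurons, had 43.4, 42.2 and 38.3 CPM in heterozygous pups 6, 7 and 11, against 50.7, 52.9 and 40.3 CPM in null pups 2, 4 and 10. Its pattern across the 6 libraries was the one nearest to that of Sox5 among the members, with null pup 10 again at the heterozygous level (log2 fold change 0.21, edgeR adjusted p = 0.774). The fold change of Zfpm2 was 0.14 without null pup 4 and 0.33 without null pup 10.

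Tle4 and Ldb2, a corepressor and a cofactor, showed small positive fold changes with overlapping groups. Tle4 was at 96.9, 103 and 109 CPM in heterozygous pups 6, 7 and 11 and at 115, 105 and 126 CPM in null pups 2, 4 and 10 (log2 fold change 0.16, edgeR adjusted p = 0.774). Here null pup 10 was the highest library, unlike for Sox5 and Zfpm2, and without it the fold change was 0.09. Ldb2 had 58.7, 54.9 and 52.9 CPM in the heterozygous pups, ordered likewise, against 57.3, 68.3 and 63.8 CPM in the null pups (0.19, edgeR adjusted p = 0.741). Null pup 2 was the lowest null library for Ldb2, whereas it was the highest of the 6 libraries for Fezf2, Bcl11b, Tbr1 and Crym.

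Foxp2, Crym and Hs3st4 had negative fold changes near 0. Foxp2, a transcription factor of layer 6 neurons, was at 95.0, 87.8 and 93.5 CPM in heterozygous pups 6, 7 and 11 and at 85.7, 87.7 and 92.1 CPM in null pups 2, 4 and 10. The groups overlapped, and the null level was 96.1% of the heterozygous one (interval 85.6% to 108%, edgeR adjusted p = 0.937). Hs3st4 had 116, 110 and 101 CPM in the heterozygous pups and 95.8, 110 and 105 CPM in the null pups (95.1%, interval 83.7% to 108%, edgeR adjusted p = 0.925). Crym had 37.1, 35.3 and 31.7 CPM in the heterozygous pups and 38.6, 36.2 and 27.7 CPM in the null pups (98.5%, interval 80.5% to 120%, edgeR adjusted p = 0.990). The upper bounds of these 3 genes lie below the lower bound of 123% found for Fezf2 and for Tbr1. The difference between members in fold change was tested only for the ratios given further on.

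**Figure D2:**
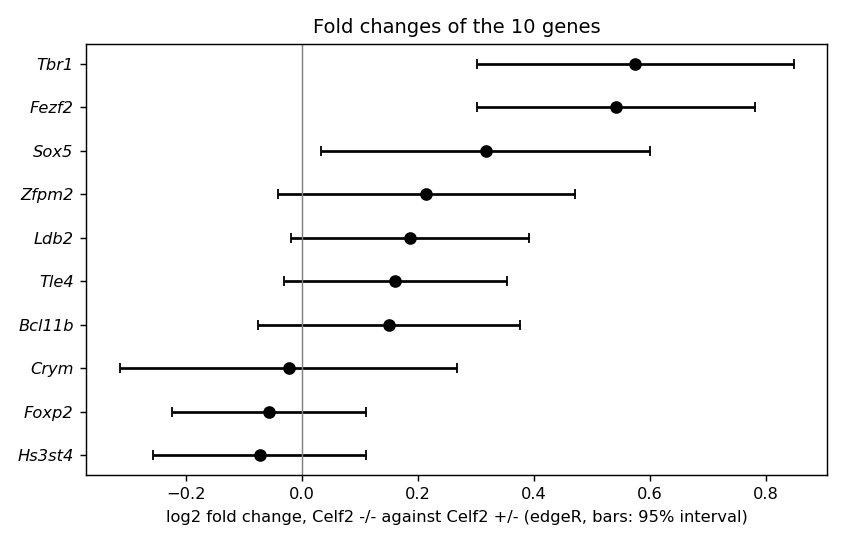
Log2 fold change of each gene, null against heterozygous, from edgeR's fit over all tested genes (horizontal axis), with 95% intervals not adjusted for the number of genes. The intervals of Tbr1, Fezf2 and Sox5 lie above 0, and those of the other 7 genes include 0.

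Counted over the 10 genes, 7 fold changes were positive and 3 negative with TMM scaling, where 49.7% of all tested genes were positive, and 3 were positive when libraries were scaled to pallial genes (given further on). The median was 0.17, against -0.001 over all tested genes. None of the 10 (0) passed edgeR's adjusted threshold, which 0.00628% of all tested genes passed (1 gene). At an unadjusted edgeR p of 0.05, 3 of the 10 were higher in null (Fezf2, Tbr1 and Sox5), where 4.13% of all tested genes were. DESeq2 called 2 of the 10 (Fezf2 and Tbr1), against 0.402% of the genes it tested, and limma-voom called 0. The groups did not overlap for 2 of the 10, both higher in null, against 6.21% of all tested genes higher in null and 12.7% in either direction. As the genes were chosen with earlier results of these data known, these counts describe them and are not a test of the group.

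The libraries did not move as 2 uniform blocks. Null pup 2 was the highest library for 4 of the 10 genes and null pup 4 for 3, whereas heterozygous pup 11 was the lowest for 4. Null pup 2 was also the lowest library for 2 genes, Foxp2 and Hs3st4. Heterozygous pup 6 was the highest for 2 and the lowest for 2. Deviations from each gene's average over the 6 libraries had medians of 0.18, 0.06 and 0.01 (log2) in null pups 2, 4 and 10 and of -0.02, -0.08 and -0.14 in heterozygous pups 6, 7 and 11. The median of null pup 10, with 5 genes above and 5 below their averages, thus lay close to that of heterozygous pup 6. The single genes did not. In null pup 10 the 3 highest deviations were for Tle4 (0.21), Tbr1 (0.20) and Fezf2 (0.15), and the lowest was for Crym (-0.31). In heterozygous pup 6 the same genes, in this order, were at -0.16, -0.26, -0.12 and 0.12.

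Other genes of the deep layers showed no common direction. Of 22 further layer 5, layer 6 and subplate genes, 13 had positive and 9 negative fold changes, with a median of 0.04, and 0 passed edgeR's adjusted threshold in either direction. Of the 22, 4 had an unadjusted edgeR p under 0.05 (Grik3, Nr4a2, Syt6 and Pcp4), where 7.06% of all tested genes did. Grik3, a kainate receptor subunit, was at 159 ± 6.26 CPM in heterozygous and 200 ± 6.22 CPM in null pups (SD, n = 3 each; log2 fold change 0.34, edgeR adjusted p = 0.318). Nr4a2, a nuclear receptor of subplate neurons, was at 36.8 ± 3.78 and 50.4 ± 1.01 CPM (0.45, edgeR adjusted p = 0.368). Pcp4, a calmodulin-binding peptide of layer 5 neurons, had lower values in null pups, 78.9 ± 8.99 and 61.4 ± 2.79 CPM in the same group order (-0.36, edgeR adjusted p = 0.496). The groups did not overlap for these 3 genes. Nxph4, a neurexin ligand of subplate and layer 6 neurons, was at 30.7 ± 4.70 and 25.1 ± 6.04 CPM, with overlap (-0.29, edgeR adjusted p = 0.816).

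Guidance receptors and known targets of the deep-layer factors were mostly positive. Of 19 such genes 13 had positive and 6 negative fold changes, the median was 0.15, 7 had an unadjusted edgeR p under 0.05 (7.06% of all tested genes), and 0 passed the adjusted threshold. The axonal adhesion protein Cntn2 was at 303 ± 22.6 CPM in heterozygous and 390 ± 16.2 CPM in null pups (log2 fold change 0.36, edgeR adjusted p = 0.353), and the semaphorin receptor Nrp1 at 97.2 ± 15.3 and 135 ± 3.80 CPM (0.47, edgeR adjusted p = 0.368). Reln and Grin2b, both known as Tbr1 targets, had log2 fold changes of 0.42 (edgeR adjusted p = 0.522) and 0.31 (edgeR adjusted p = 0.610), without overlap between the groups. Auts2, another, was at 0.26, with overlapping groups. The glutamate transporters of cortical and subcortical projection neurons, Slc17a7 and Slc17a6, were at -0.10 and -0.12, with overlap. Reln, Grin2b and Auts2 were named for their relation to Tbr1 after their values were seen, so they do not show how Tbr1 targets behaved as a set. Ntng1 of the same list, also named after its value was seen, was at -0.03 with overlapping groups.

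Genes shared by pallial excitatory neurons of all layers also had higher values in null libraries. All 10 of them had positive fold changes with TMM scaling (median 0.32), 8 with an unadjusted edgeR p under 0.05 (7.06% of all tested genes) and 0 past the adjusted threshold. For 7 of the 10 the groups did not overlap, against 12.7% of all tested genes. Neurod6, a transcription factor of these neurons, was at 178 ± 8.82 CPM in heterozygous and 258 ± 14.0 CPM in null pups (0.53, edgeR adjusted p = 0.0620), and Neurod2 at 203 ± 24.8 and 255 ± 1.09 CPM (0.33, edgeR adjusted p = 0.496). Among 15 upper-layer and callosal genes, 13 were positive and 2 negative with a median of 0.06. Pou3f3, a transcription factor of upper-layer neurons, was at 165 ± 2.03 and 209 ± 23.6 CPM (0.34, edgeR adjusted p = 0.441). Rorb of layer 4 was at -0.23 and Cux2 at -0.08.

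Marker genes of other regions and cell types were compared in the same libraries, and 0 of them passed edgeR's adjusted threshold. For hindbrain, astrocyte and striatal genes the summed levels did not overlap between the groups and were lower in null. Sums of the corticofugal, further deep-layer, upper-layer, pallial and axon lists did not overlap either, and were higher in null. For the corticofugal genes they were 791 to 821 CPM in heterozygous and 877 to 979 CPM in null libraries. For the further deep-layer genes they were 1089 to 1140 and 1164 to 1211 CPM. Such sums weight the most abundant genes. The mean log2 deviation of the further deep-layer genes from each gene's average overlapped between the groups. It was -0.03, 0.05 and -0.01 in heterozygous pups 6, 7 and 11 and -0.09, 0.07 and 0.02 in null pups 2, 4 and 10. Summed CPM of 9 tested hindbrain genes was 43.1, 110 and 41.9 in heterozygous pups 6, 7 and 11, with pup 7 far above the others. It was 13.2, 26.4 and 30.5 in null pups 2, 4 and 10. All 9 had negative fold changes, Hoxb2 (-2.93, edgeR adjusted p = 0.438) among them. Hoxb2 was at 1.59, 5.69 and 1.37 CPM in the heterozygous and 0.394, 0.504 and 0.204 CPM in the null pups, ordered likewise. Of the 11 hindbrain genes listed, Hoxb4 (1 to 212 counts) and Hoxb5 (0 to 1295 counts) did not pass the filter, both with their highest count in heterozygous pup 7. The summed level of 10 astrocyte genes was 1679 to 1818 CPM in heterozygous and 1298 to 1610 CPM in null libraries, and all 10 were negative. Apoe alone was at 678 ± 32.9 CPM in heterozygous and 518 ± 77.6 CPM in null pups. The mean log2 deviation of the astrocyte genes overlapped between the groups, at 0.04 to 0.24 in heterozygous and -0.33 to 0.05 in null libraries. The 10 striatal genes summed to 318 to 345 CPM and 289 to 304 CPM, with 9 negative, Penk (-0.68) and Tac1 (-0.26) with the smallest p. Sums overlapped for 9 thalamic genes (603 to 727 and 657 to 701 CPM), 9 interneuron genes (656 to 718 and 652 to 744 CPM) and 9 genes of the oligodendrocyte lineage (432 to 533 and 396 to 499 CPM). Midbrain genes summed to 29.3 CPM in null pup 2 and to 55.8 to 71.6 CPM in the other 5 libraries. Immediate-early genes summed to 446 and 1166 CPM in null pups 2 and 4 and to 122 to 148 CPM in the other 4. The part of these genes' differences in the values of the deep-layer genes was not tested.

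**Figure D3:**
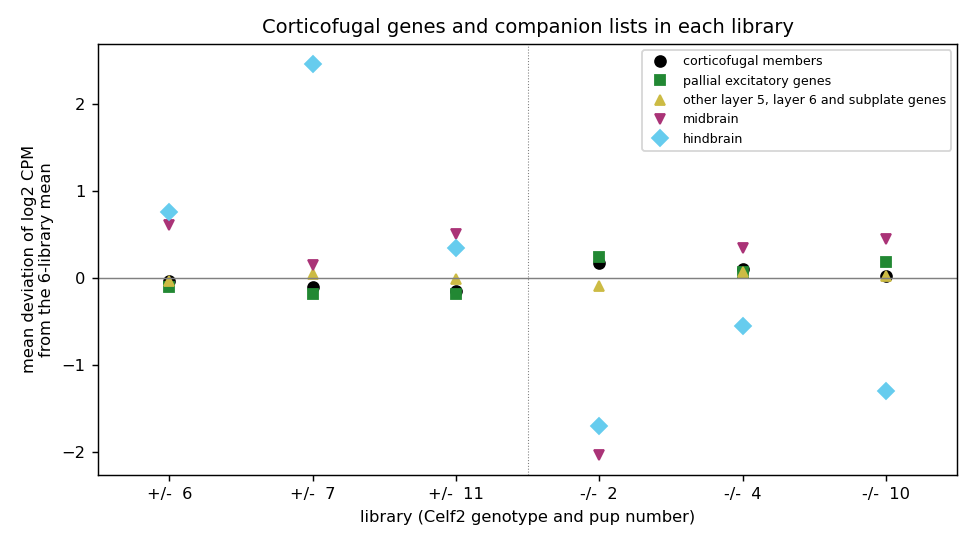
Mean deviation of log2 CPM from the average over 6 libraries (vertical axis) for the corticofugal genes and 4 other gene groups, 1 position per library. The means of the corticofugal and of the pallial genes lie below average in the 3 heterozygous and above in the 3 null libraries. Neither mean is further than 0.241 from average, while single genes can be. The hindbrain mean is above average in the 3 heterozygous libraries, furthest in pup 7, and below in the 3 null libraries. The mean of the further layer 5, layer 6 and subplate genes overlaps between the groups and is lowest in null pup 2. The midbrain mean is also lowest in null pup 2.

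Ratios of 2 genes within a library do not depend on how libraries are scaled, and 9 were compared by exact two-sided permutation tests, 6 of which are given here with p adjusted over all 9. With this test 3 against 3 pups cannot give a p below 0.1. The log2 ratio of Tbr1 to Bcl11b was -1.12, -1.14 and -1.24 in heterozygous pups 6, 7 and 11 and -0.69, -0.82 and -0.73 in null pups 2, 4 and 10. The groups were apart by more than their spread, with means that differed by 0.42 (exact permutation p = 0.1, adjusted p = 0.225). The ratio of Fezf2 to Bcl11b was -2.48, -2.75 and -2.76 in heterozygous and -2.40, -2.08 and -2.29 in null pups, also without overlap (difference 0.40, exact permutation p = 0.1, adjusted p = 0.225). These differences lay between 0.38 and 0.45 for Tbr1 to Bcl11b and between 0.32 and 0.49 for Fezf2 to Bcl11b when any 1 library was left out. As Bcl11b is also known in striatal neurons, both ratios can vary with the share of striatum in a hemibrain, which was not tested. Tbr1 to Fezf2, the layer 6 to layer 5 determinants, differed by 0.01 with overlapping groups (exact permutation p = 1).

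Against the mean of the 10 pallial genes, Tbr1 differed by 0.23 (exact permutation p = 0.1, adjusted p = 0.225, no overlap) and Fezf2 by 0.22 (exact permutation p = 0.2, adjusted p = 0.36, overlap). The former was 0.12 without null pup 2, whose ratio of 0.23 lay above the other null values of -0.15 and -0.11. Bcl11b to the mean of the 10 striatal genes was higher in all 3 null pups, by 0.32 (exact permutation p = 0.1, adjusted p = 0.225).

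**Figure D4:**
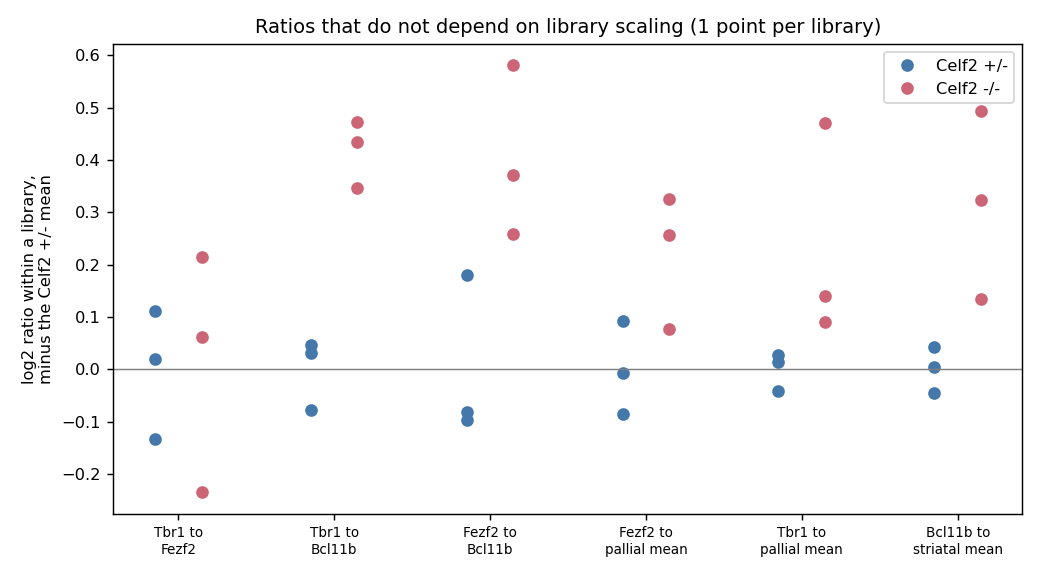
Log2 ratio of CPM within each library for 6 pairs, minus the mean of the 3 heterozygous libraries (vertical axis), with 1 point per library. Tbr1 and Fezf2 relative to Bcl11b, Tbr1 relative to the pallial mean and Bcl11b relative to the striatal mean do not overlap between the groups, while Tbr1 relative to Fezf2 and Fezf2 relative to the pallial mean do.

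Scaling each library to the 10 pallial genes in place of TMM factors gives the levels relative to cortical excitatory neurons as a whole. It lowered the median over all tested genes to -0.32, and the 10 deep-layer genes then had a median of -0.15 with 3 positive fold changes. Tbr1 was at 0.24 (edgeR adjusted p = 0.0900), Fezf2 at 0.22 (edgeR adjusted p = 0.142) and Sox5 at 0.001. Foxp2 (-0.38, edgeR adjusted p = 0.0197) and Hs3st4 (-0.39, edgeR adjusted p = 0.0223) passed as lower in null, where 31.2% of all tested genes were called lower under this scaling. Bcl11b was at -0.18 and Tle4 at -0.17, and neither passed.

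**Figure D5:**
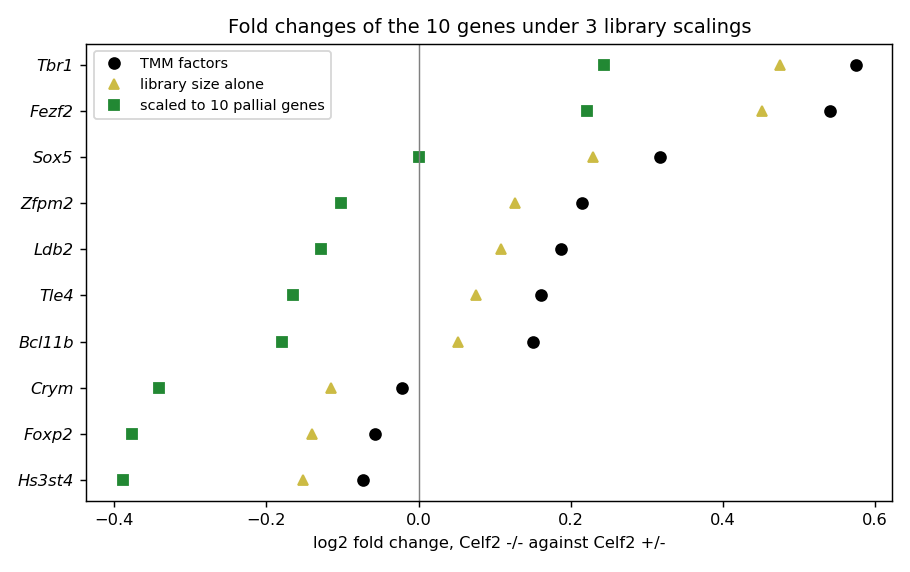
Log2 fold change of each gene, null against heterozygous (horizontal axis), with TMM factors, with library size alone and with libraries scaled to 10 pallial genes. Tbr1 and Fezf2 stay above 0 in each, and Bcl11b, Tle4, Ldb2 and Zfpm2 change sign with pallial scaling.

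The genes whose pattern was most like that of the 2 leading members were sought among 10113 other tested genes with a mean of at least 10 CPM, by the root mean square difference of centred log2 CPM over the 6 libraries. For Fezf2 they were Sept8 (difference 0.07), a septin, Dusp6 (0.08), a phosphatase of ERK kinases, and Acly (0.09), an enzyme of lipid synthesis, where Fezf2 itself varied by 0.29 around its mean. For Tbr1 they were Soga3 (0.10), Plekhn1 (0.10) and the DNA damage kinase Atm (0.11), against 0.32 for Tbr1 itself. Among the members, Fezf2 and Tbr1 were nearest to each other (0.15).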

How the data were processed

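The authors deposited raw read counts (whole numbers) and a length for each gene symbol. Per the labels' protocols the libraries came from a strand-specific kit for small amounts of total RNA, whereas the design text names poly(A) libraries, and this was not resolved. The submitters' processing notes name the builds hg19 and mm9 and the tools STAR, cutadapt, Picard, CASAVA, MACS2 and bedtools. How reads were assigned to genes is not given in the sources used, so reads of overlapping or antisense genes could not be separated.

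Genes passing edgeR's filterByExpr were tested with the quasi-likelihood test of edgeR 4.0.16 (R 4.3.3, TMM factors, robust dispersion) on all 6 libraries, with Benjamini-Hochberg adjustment over all genes tested at 0.05. The SE of a fold change was its size over the square root of the F statistic. CPM use TMM-scaled library sizes, TPM the deposited lengths, and log2 ratios a prior of 0.5 counts. Alternatives were DESeq2 1.42.0, limma-voom 3.58.1 and the settings named in the closing section. The smallest chi-square per gene between libraries was 12.8, so none agreed within sampling noise. In counts simulated for this comparison over 15824 genes, 44 of 100 genes changed 1.5-fold and 97 of 100 changed 2-fold were recovered, with 11 false calls. All genes were simulated with the same dispersion (coefficient of variation 13.9%), and libraries otherwise differed only in their totals. The rates therefore need not hold for the real libraries.

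The members and the 12 companion lists were chosen with earlier results of these data known. Lists are described by counts and medians. From each, up to 2 genes per direction with the smallest p were to be named, and others are said to be named after their values were seen. Of the 153 list entries, all 153 were found, Lratd2 and Ccn2 under Fam84b and Ctgf. Some results for genes of these lists are not reported here.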

Additional observations from a re-analysis of the deposited data

How the results depend on the processing

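The edgeR call of 1 gene over all genes became 0 with DESeq2 size factors, a CPM minimum, limma-voom, no robust dispersion and structural RNAs removed, 2 with library size alone or upper-quartile factors, 3 with no low-count filter, 10 with a Y-linked covariate, 64 with DESeq2's Wald test and 4968 with pallial scaling. Without single libraries it was 0 to 4, and 35 with DESeq2 without null replicate 2, a setting chosen after seeing the data. Of the 10 deep-layer genes 0 were called, against 2 with DESeq2 (Fezf2 and Tbr1), 1 with DESeq2 without null replicate 2 (Tbr1) and 2 with pallial scaling (Foxp2 and Hs3st4). Positive fold changes numbered 7, against 3 with pallial scaling, 8 with the Y-linked covariate and 7 to 8 without single libraries. The median of 0.17 was 0.091 for unscaled library sizes (-0.086 over all genes) and -0.15 with pallial scaling. Pallial scaling, which by construction centres the pallial genes, reversed Bcl11b (-0.18), Tle4 (-0.17), Zfpm2 (-0.10) and Ldb2 (-0.13). Crym turned positive with the Y-linked covariate (0.012) and when heterozygous replicate 6 (0.03) or null replicate 10 (0.11) was left out, with a range of -0.12 to 0.11 without single libraries, and the cause was not tested. Fezf2 lay between 0.22 and 0.62 and Tbr1 between 0.24 and 0.69 over all alternatives run, positive in each, with adjusted p from 0.00324 and 0.0112 (DESeq2) to 0.9999 for each (edgeR without heterozygous replicate 7). With 3 pups a group, 44 of 100 simulated 1.5-fold changes were recovered. The simulation gave all genes the same dispersion, so this rate need not hold for the real libraries. No paired analysis was possible because the groups share no replicate number.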
